A study of Mus musculus with 12 samples.

Results

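The Hoxd cluster on mouse chromosome 2 was profiled for H3K27me3 by ChIP-chip in mESCs and NPCs. Its members here were the 3132 probed positions of 60 bases in the tiled part of the cluster, out of 48316 on a custom Agilent array. They were chosen by position alone and ran from 74400761 to 74723455 in the mm9 build with a median step of 60 bp, from the last part of Lnp through Evx2 and the Hoxd genes to Mtx2. In tiles of 5 kb they made up 65 of the 963 tiles that could be tested across the array.

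The 6 conditions were 46c ESCs with the eGFP control, 46c ESCs with 1 of 4 activators, and NPCs differentiated from ESCs in N2B27 medium. 46c is an ESC line with a GFP reporter in Sox1, and a TALE-Vp64 is a designed DNA-binding domain fused to a transcriptional activator, here aimed at the Shh promoter (tShh-Vp64), at its enhancers SBE6 (tSBE6-Vp64) or SBE2 (tSBE2-Vp64), or at both enhancers (tSBE(6+2)-Vp64), all on another chromosome, so that no construct was designed against Hoxd. The study's methods describe sorting transfected ESCs on eGFP, the labels of these arrays do not mention a sort, and they do not say on which day NPCs were taken. Each condition had 2 arrays, R1 and R2, which were averaged to 1 sample, so that the NPC condition was 1 sample and the ESC populations were 5.

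Polycomb repressive complex 2 places H3K27me3 on chromatin, and the Hox clusters are among its classical targets. In ESCs the clusters are silent and broadly covered by the mark. As the body axis forms, Hox genes are activated in the order of their position, anterior genes such as Hoxd1, Hoxd3 and Hoxd4 before the posterior AbdB-like genes Hoxd9 to Hoxd13, and the mark is cleared from active genes while inactive ones keep it. Along chromosome 2 the posterior end comes first, so positions rise from Evx2 and Hoxd13 toward Hoxd1.

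Values are log2 ratios of the Cy5 over the Cy3 signal, centered on the median of each array, so that 0 is the level of the median probe. This is the direction of the ChIP/input ratios that the authors deposited, with which it correlated across probes at 0.899 to 0.944. The dye labels name the opposite direction, and in that direction every sign below would be reversed. As a check of the cell labels, the ratio at the promoter of Pou5f1, a pluripotency gene, ranged from -0.47 to -0.32 over the ESC populations, against 1.88 in NPCs. At the promoter of Nes, a neural progenitor gene, ESC values of 0.55 to 0.91 stood against -0.05 in NPCs. A ratio is a mean over all cells of a culture, so that fewer cells with the mark and less of the mark per cell cannot be told apart.

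The extremes of the interval are shown by 4 probes. They are written 5′ to 3′ on the plus strand with CG dinucleotides in capitals, and are the most extreme probes among the 2497 that were read on every array, leaving out those in an annotated UTR, which removed 1 more extreme probe for each of the highest values and none for the lowest.
Highest ESC ratio, between Evx2 and Hoxd13, chr2:74503737-74503796: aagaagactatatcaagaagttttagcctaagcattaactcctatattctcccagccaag
Lowest ESC ratio, intron of Mtx2, chr2:74689898-74689957: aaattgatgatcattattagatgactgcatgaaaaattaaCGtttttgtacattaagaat
Highest NPC minus ESC, beside Evx2, chr2:74490461-74490520: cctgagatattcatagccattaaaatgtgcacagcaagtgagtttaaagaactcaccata
Lowest NPC minus ESC, intron of Lnp, chr2:74415932-74415991: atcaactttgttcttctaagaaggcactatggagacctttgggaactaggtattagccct
The first probe had a mean ratio of 4.47 ± 0.40 (SD, n = 5 populations) in ESCs and 6.70 and 6.15 on the NPC arrays. The second had -2.30 ± 0.29 (SD, n = 5) in ESCs, while its NPC arrays disagreed at 0.27 and -1.49. The third stood at 2.75 ± 0.16 (SD, n = 5) in ESCs and at 6.80 and 5.95 in NPCs, and the fourth at -0.28 ± 0.50 (SD, n = 5) in ESCs and -3.15 and -2.20 in NPCs. Neither of the highest probes contained a CG, and both lay in gene-free sequence at the Evx2 end of the cluster.

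In ESCs H3K27me3 was high over most of the cluster from Evx2 to Hoxd1 (plot of 2 kb tiles along the cluster). Its 5 kb tiles held the 3 highest ESC values of the whole array. These were the tile from 74545001 to 74550000, from the end of Hoxd8 to the first start of Hoxd3 and within the antisense lincRNA gene 1700109F18Rik, at 2.47 ± 0.24 (SD, n = 5), the tile from 74500001 to 74505000, between Evx2 and Hoxd13, at 2.43 ± 0.24, and the tile from 74575001 to 74580000, inside Hoxd3, at 2.42 ± 0.20. Of the 10 highest ESC tiles of the array 7 were Hoxd tiles, and of the 20 highest 13 were. The 3 lowest tiles of the interval, from 74710001, 74695001 and 74685001, all lay in Mtx2, a gene for a mitochondrial outer membrane protein next to the cluster, at -1.02, -0.89 and -0.86.

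**Figure D1:**
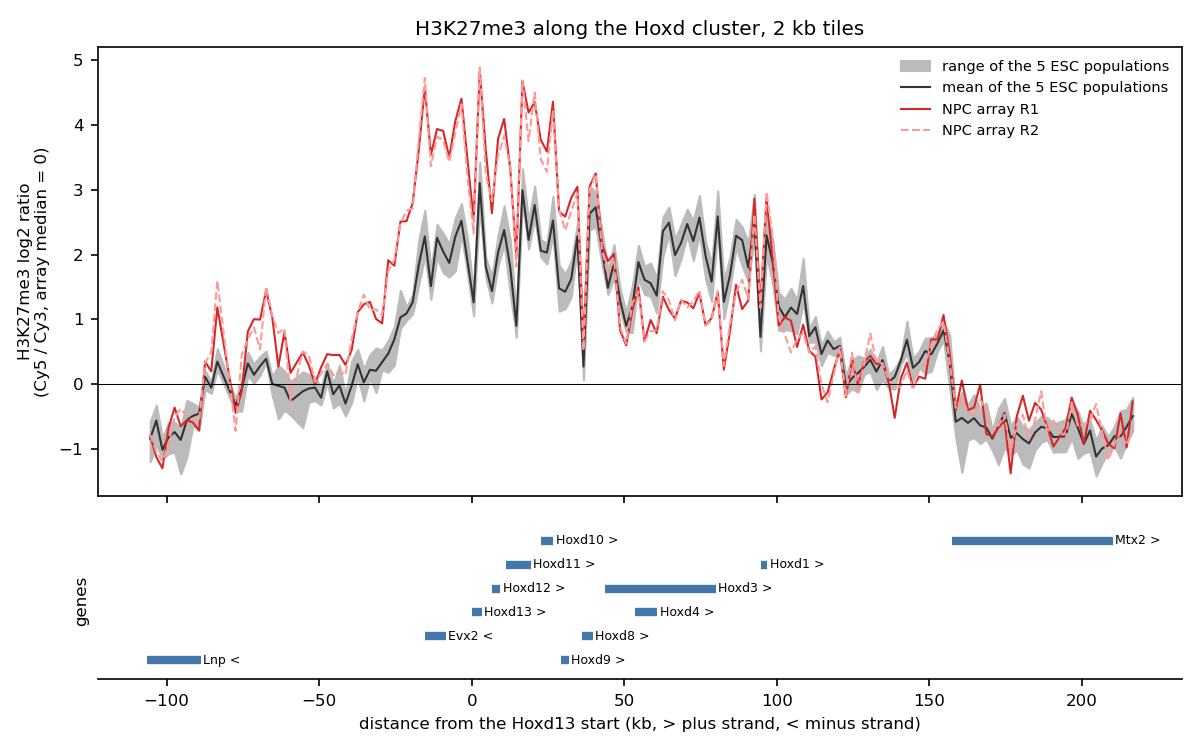
H3K27me3 log2 ratio (Cy5 over Cy3, array median at 0) in 2 kb tiles against the distance from the Hoxd13 start in kb, with the range (gray) and mean (black) of the 5 ESC populations, both NPC arrays (red) and the annotated genes below. The NPC arrays lie above the ESC range from upstream of Evx2 to Hoxd9 and below it over most of Hoxd4 and Hoxd3.

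Runs of 2 kb tiles with a ratio of at least 1 on both arrays, joined across a gap of at most 1 tile, traced the domain. In eGFP ESCs there were 3 such blocks with a total of 124 kb, the longest from 74484001 to 74556000 and from 74560001 to 74608000. With such gaps joined, the domain was 1 block in tShh-Vp64 ESCs (130 kb), tSBE6-Vp64 ESCs (130 kb) and tSBE(6+2)-Vp64 ESCs (134 kb), and 3 blocks of 120 kb in total in tSBE2-Vp64 ESCs. In NPCs the total was 126 kb, near that of eGFP ESCs, but it was divided into 7 blocks. One of these ran for 86 kb from 74468001 to 74554000, starting before the eGFP domain and ending past the first start of Hoxd3. The NPC blocks past it, over Hoxd4, Hoxd3 and Hoxd1, were 2 to 14 kb long. The NPC total depended on the threshold and the normalization, and was 84 kb with the deposited ratios or a threshold of 1.5.

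The shape of the domain differed between the cell types. From Evx2 to Hoxd9 (551 probes) the mean ratio was 2.18 in eGFP ESCs, 1.85 with tShh-Vp64, 1.91 with tSBE6-Vp64, 1.90 with tSBE2-Vp64 and 2.23 with tSBE(6+2)-Vp64, and the NPC arrays gave 3.64 and 3.49. From Hoxd8 to Hoxd1 (733 probes) the ESC populations had 2.00, 1.69, 1.76, 1.76 and 2.11 in the same order, and the NPC arrays 1.37 and 1.36. Both NPC arrays were thus above all ESC populations in the posterior part and below all of them in the anterior part. NPC minus ESC was 1.55 in the posterior part and -0.50 in the anterior part, against an SD of 0.18 over ESC populations in either part. Both kept their sign in the 8 alternatives, but the size moved, from 0.65 (loess and scale normalization) to 1.71 in the posterior part and from -0.85 to -0.45 in the anterior part. Within each array the posterior mean minus the anterior mean was 0.11 to 0.18 on the 10 ESC arrays and 2.27 and 2.13 on the NPC arrays. These span means were not tested, because the fit was made over tiles and promoters.

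Over the whole gene region, from the low end of Evx2 to the end of Hoxd1 (1339 probes), the opposite differences partly cancelled. The mean was 1.92 ± 0.18 (SD, n = 5) in the ESC populations and 2.27 in NPCs (2.33 and 2.22 on the arrays), a difference of 0.36. It had the opposite sign with loess and scale normalization (-0.22), with the deposited ratios (-0.0276), with rescaled NPC values (-0.0914) and as a median over probes (-0.0207). A higher or lower mean level of the gene region in NPCs was therefore not stable.

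**Figure D2:**
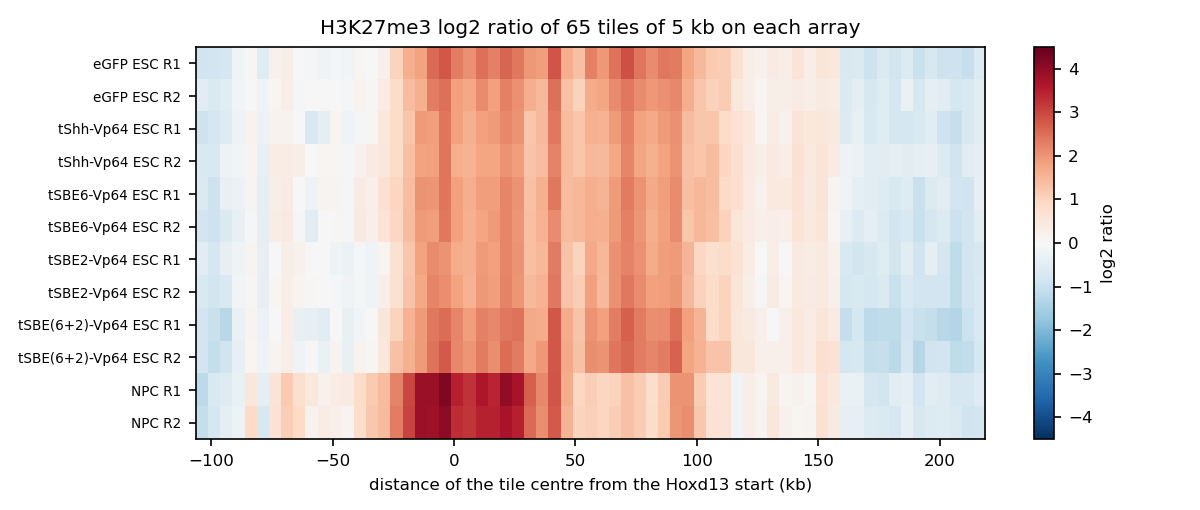
Heat map of the log2 ratio of the 65 tiles of 5 kb (x axis, distance of the tile center from the Hoxd13 start in kb) on each of the 12 arrays (rows, 2 per condition). The 10 ESC arrays share 1 broad band of high ratios. On both NPC arrays the band is stronger from Evx2 to Hoxd9 and weaker from Hoxd4 to the end of Hoxd3.

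In the limma fit of NPCs against the 5 ESC populations, 23 of the 65 Hoxd tiles (35.4%) were higher in NPCs at an adjusted p of at most 0.05, against 26.9% of all tiles of the array. In the other direction 11 tiles (16.9%) were lower, against 11.5% of all tiles. With the deposited ratios the order of these last shares turned, with 17 Hoxd tiles (26.2%) lower against 34.3% of all tiles, and the median difference over all tiles was -0.10. It also turned with the trend on GC content removed and with arrays as samples. In the main fit the median difference was 0.17 over the Hoxd tiles and 0.05 over all tiles, with Hoxd values from -1.12 to 2.02. The called tiles were not scattered: 17 of the 23 higher tiles adjoined each other, as did 7 of the 11 lower ones.

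The long higher run covered 85 kb from 74460001 to 74545000 and contained Evx2, Hoxd13, Hoxd12, Hoxd11, Hoxd10, Hoxd9 and the start of Hoxd8. Its differences were between 0.40 and 2.02. The largest stood at the tile from 74490001 to 74495000, over the 3′ part of Evx2, where the populations had 1.70 (eGFP), 1.87 (tShh), 1.97 (tSBE6), 1.77 (tSBE2) and 1.92 (tSBE(6+2)) and the NPC arrays 3.89 and 3.84, a difference of 2.02 (SE 0.13, adjusted p = 1.34e-06), which was 1.04 with loess and scale normalization. From there to the tile that ends at 74535000 the differences stayed between 1.48 and 2.02, and they fell to 1.11 over Hoxd9 and 0.52 (SE 0.15, adjusted p = 0.0188) over Hoxd8. The Hoxd8 tile lost its call in 6 of 17 alternatives, whereas the tiles from 74470001 to 74540000 kept theirs in all 17.

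Before that run 5 further tiles were higher in NPCs. The tile from 74420001 to 74425000 had 0.03 to 0.14 in the ESC populations and 0.53 and 0.86 on the NPC arrays, a difference of 0.62 (SE 0.11, adjusted p = 0.00117). In the run from 74430001 to 74450000, where no gene is annotated, the differences were 0.45 to 0.87, and the calls of the tiles from 74430001 and 74445001 were lost in 3 of 17 and 5 of 16 alternatives. Its tile from 74435001 rose from 0.29 ± 0.06 (SD, n = 5) to 1.20 and 1.13. This flank of the cluster holds limb enhancers of the posterior Hoxd genes.

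The long lower run covered 35 kb from 74560001 to 74595000 and contained Hoxd4, Mir10b, most of Hoxd3 and the noncoding genes Gm14424 and Gm14426. Its 7 tiles differed by -1.12 to -0.69, with adjusted p-values of at most 0.0114, and all 7 kept the call in all 17 alternatives. The lowest difference was in the Hoxd3 tile from 74575001 to 74580000, one of the 3 highest ESC tiles of the array. The populations had 2.63 (eGFP), 2.24 (tShh), 2.30 (tSBE6), 2.30 (tSBE2) and 2.64 (tSBE(6+2)) there, and the NPC arrays 1.30 and 1.31, a difference of -1.12 (SE 0.17, adjusted p = 0.000417). By level this tile ranked 3 of 963 in ESCs and 141 in NPCs. The NPC ratios over the run, 0.80 to 1.31, were still above those of the Mtx2 gene body, whose mean was -0.56 in NPCs.

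Between the long runs the sign turned. The tile from 74545001 to 74550000 differed by 0.31 (SE 0.20, adjusted p = 0.232), the next by 0.15 (SE 0.15, adjusted p = 0.464) and the one from 74555001 by -0.29 (SE 0.15, adjusted p = 0.165), none past the threshold. In 2 kb tiles the last higher one before the turn began at 74540001 (0.72, adjusted p = 0.00534) and the first lower one at 74562001 (-0.95, adjusted p = 0.00137). The change from higher to lower thus lay between Hoxd8 and Hoxd4, inside the long gene model of Hoxd3. Past the lower run the NPC ratio came back to 2.02 and 2.00 in the tile from 74595001 (difference -0.18, adjusted p = 0.505). The Hoxd1 tile from 74600001 was higher in NPCs, at 2.02 and 2.09 against 1.54 ± 0.22 (SD, n = 5), with a difference of 0.52 and an adjusted p of 0.0481. That call was lost in 10 of 17 alternatives, in 1 of them with a difference of -0.00506.

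Beyond Hoxd1 the tiles from 74615001 (-0.39, adjusted p = 0.0418) and 74620001 (-0.76, SE 0.11, adjusted p = 0.000329) were lower in NPCs, as was the tile from 74645001 (-0.38, adjusted p = 0.0375). The calls at 74615001 and 74645001 were lost in 3 and 7 of 17 alternatives. The tile from 74620001 stood at 0.51 to 0.68 in the ESC populations and at -0.15 and -0.16 in NPCs. At the other edge of the interval the first tile, inside Lnp and up to 74405000, was lower in NPCs (-0.38, adjusted p = 0.0398), a call that was lost in 11 of 17 alternatives. In the 13 tiles from 74660001 on, over Mtx2 and past it, no call was made.

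**Figure D3:**
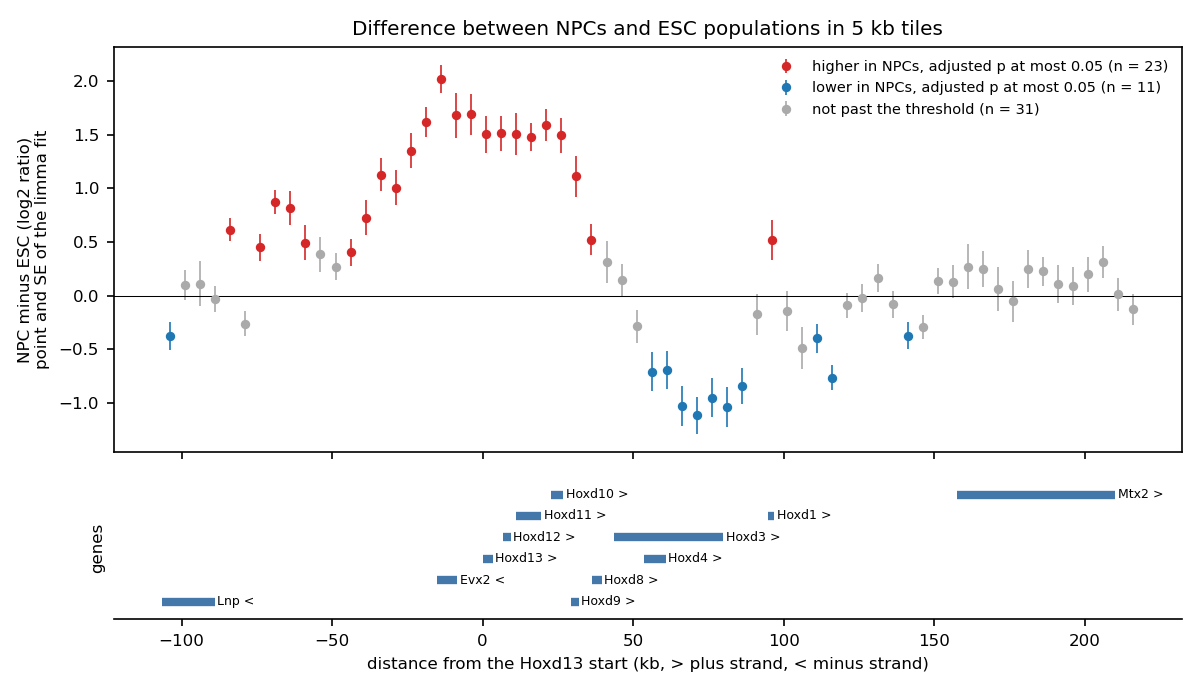
NPC minus ESC difference of the log2 ratio for each 5 kb tile (point) with the SE of the limma fit (bar) against the distance from the Hoxd13 start in kb, with the annotated genes below. The 23 higher tiles (red) peak over Evx2 at 2.02 and the 11 lower tiles (blue) reach -1.12 over Hoxd3.

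At gene starts the levels were read as the mean of the probes within 1 kb of the most upstream annotated start. Of 25 genes with a start in the interval, 23 had at least 10 probes on every array. Higher ratios in NPCs were found for 9 of the 23 promoters (39.1%), against 49.1% of the 110 promoters of the array. Lower ratios were found for 3 (13.0%), against 7.27% of all promoters. The median difference was 0.37 in the interval and 0.48 over all promoters.

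Evx2 and the posterior Hoxd genes, which encode homeodomain factors of the trunk, limb and genital tubercle, all passed the threshold. Higher ratios were found for 6 of 6, against 49.1% of all promoters of the array. Their median difference was 1.36, against 0.48 over all promoters. Evx2, the even-skipped homolog at the end of the cluster, had 2.43 (eGFP), 1.85 (tShh), 1.91 (tSBE6), 2.06 (tSBE2) and 2.41 (tSBE(6+2)) in ESCs. Its NPC arrays had 3.89 and 3.93, well above all populations, and the difference was 1.78 (SE 0.23, adjusted p = 7.42e-06). Hoxd10, a gene of hindlimb and lumbar identity, had the smallest spread among these genes, from 1.97 to 2.18 in ESCs, against 3.71 and 3.30 in NPCs (difference 1.46, SE 0.18, adjusted p = 4.65e-06). Hoxd13, the gene of the digits, started lower, from 0.68 to 1.16 in ESCs, and reached 2.21 and 1.90 in NPCs (difference 1.12, SE 0.20, adjusted p = 0.000151). With loess and scale normalization the difference was 0.79 at Evx2, 0.57 at Hoxd10 and 0.61 at Hoxd13.

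The differences of the other posterior genes were 1.42 at Hoxd11, 1.29 at Hoxd12 and 0.92 at Hoxd9, and with loess and scale normalization 0.49, 0.61 and 0.46. Hoxd9 had the widest spread of this group in ESCs, with 1.32 in eGFP ESCs and 0.61 in tSBE6-Vp64 ESCs, and its NPC level of 1.88 gave an adjusted p of 0.00483. Its call was lost in 2 of 18 alternatives, whereas the other 5 genes kept theirs in every alternative tested.

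The central and anterior genes Hoxd8, Hoxd4, Hoxd3 and Hoxd1 had no call at their most upstream starts (0 of 4), with a median difference of 0.26. Hoxd8 had 0.23 to 0.61 in ESCs and 0.89 and 0.72 in NPCs, and its difference of 0.37 (SE 0.19) had an adjusted p of 0.101. Hoxd1, the most anterior gene, had 0.43 to 0.93 in ESCs and 1.20 and 1.10 in NPCs (difference 0.48, SE 0.21, adjusted p = 0.0574). Both NPC arrays of Hoxd1 were above all ESC populations, and the call was made in 6 of 18 alternatives, but the difference was -0.10 in the lowest of them. At the upstream starts of Hoxd4 (-0.23, adjusted p = 0.352) and Hoxd3 (0.15, adjusted p = 0.610) the NPC level was within or just below the range of the ESC populations.

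The upstream starts of Hoxd3 and Hoxd4, at 74549986 and 74560035, lay in or before the turn of the profile, and most of their transcripts start further on. In a fit over every annotated start, added after these results had been seen, 10 of the 36 starts of the interval (27.8%) were higher in NPCs, against 41.4% of the 191 starts of the array. Lower ratios were found at 10 (27.8%), against 9.42% of all starts. Hoxd3, a gene of the cervical vertebrae and hindbrain, had 6 starts and 5 of them were lower. Its start at 74570971 had 2.68 (eGFP), 2.31 (tShh), 2.36 (tSBE6), 2.37 (tSBE2) and 2.73 (tSBE(6+2)) in ESCs and 1.15 and 1.29 in NPCs. Both NPC arrays were far below the lowest population, and the difference was -1.27 (SE 0.21, adjusted p = 1.86e-05). The downstream start of Hoxd4, at 74565131, differed by -0.65 (SE 0.21, adjusted p = 0.0126), and the internal start of the antisense RNA 6720416L17Rik, at 74588563, by -0.97 (adjusted p = 0.000507). Windows of starts closer than 2 kb share probes, as those of Hoxd4, Hoxd3 and Mir10b do here, so that these counts are not independent.

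**Figure D4:**
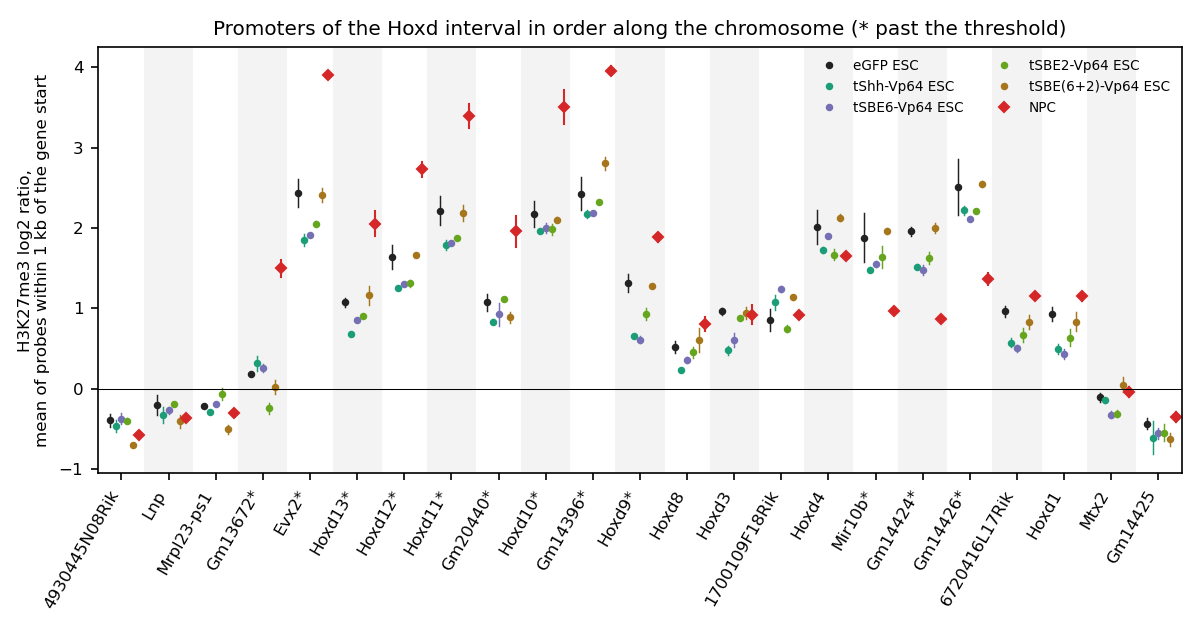
H3K27me3 log2 ratio within 1 kb of the most upstream start of the 23 genes, in order along the chromosome, for the 5 ESC populations (circles) and NPCs (diamonds), with a line from array R1 to R2. NPCs lie above all ESC populations from Gm13672 to Hoxd9 and below them at Mir10b, Gm14424 and Gm14426. They also lie above them at Hoxd8, 6720416L17Rik, Hoxd1 and Gm14425 and just below them at Hoxd4, without a call.

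Among the other annotated genes 3 of 11 were higher, against 49.1% of all promoters of the array, and 3 were lower, against 7.27%. The higher ones were Gm14396 (1.58), between Hoxd10 and Hoxd9, Gm20440 (0.99), which overlaps Hoxd11 and Hoxd10, and the pseudogene Gm13672 (1.39) upstream of Evx2. Gm13672 had only -0.24 to 0.32 in ESCs and reached 1.39 and 1.61 in NPCs, with no overlap between the groups. The lower ones were Gm14426 (-0.95, SE 0.20, adjusted p = 0.000661), Gm14424 (-0.84, adjusted p = 0.00329) and Mir10b.

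Mir10b, whose hairpin lies in an intron of Hoxd4 at chr2:74564127-74564194, had 1.88 (eGFP), 1.48 (tShh), 1.56 (tSBE6), 1.64 (tSBE2) and 1.96 (tSBE(6+2)) in ESCs and 1.00 and 0.93 in NPCs. Both NPC arrays were below every population (difference -0.74, SE 0.20, adjusted p = 0.00555). It makes a miRNA of the anterior Hox group, shown with its seed, bases 2 to 8, in capitals (RefSeq, GRCm38.p6).
miR-10b-5p: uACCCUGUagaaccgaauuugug
The flanking coding genes Lnp (-0.09, adjusted p = 0.709) and Mtx2 (0.12, adjusted p = 0.644) were not called (0 of 2), and the ratios at both starts were between -0.40 and 0.05 in every population, NPCs included.

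Promoters within the domain also differed among themselves, and in ESCs their ratio went down with the CG content of the 2 kb around the start. The 200 bases upstream of 4 starts are printed on the strand of the gene, with CG in capitals, since these starts stand for the largest rise (Evx2), a CG-rich dip (Hoxd13), the turn of the profile (Hoxd8) and the largest fall (Hoxd3, start at 74570971).
Evx2, minus strand, chr2:74497919-74498118: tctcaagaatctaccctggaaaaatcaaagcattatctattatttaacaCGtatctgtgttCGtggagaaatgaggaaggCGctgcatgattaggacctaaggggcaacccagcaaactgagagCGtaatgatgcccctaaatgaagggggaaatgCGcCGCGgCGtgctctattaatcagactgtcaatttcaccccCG
Hoxd13, plus strand, chr2:74506167-74506366: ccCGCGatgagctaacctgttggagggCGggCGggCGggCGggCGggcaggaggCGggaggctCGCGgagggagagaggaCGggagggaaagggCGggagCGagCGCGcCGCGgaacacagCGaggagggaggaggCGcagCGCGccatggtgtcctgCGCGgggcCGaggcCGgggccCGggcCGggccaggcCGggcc
Hoxd8, plus strand, chr2:74542472-74542671: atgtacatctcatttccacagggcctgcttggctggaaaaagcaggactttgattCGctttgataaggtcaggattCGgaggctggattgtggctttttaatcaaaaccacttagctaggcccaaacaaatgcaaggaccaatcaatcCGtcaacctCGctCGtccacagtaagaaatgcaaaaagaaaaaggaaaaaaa
Hoxd3, internal start, plus strand, chr2:74570771-74570970: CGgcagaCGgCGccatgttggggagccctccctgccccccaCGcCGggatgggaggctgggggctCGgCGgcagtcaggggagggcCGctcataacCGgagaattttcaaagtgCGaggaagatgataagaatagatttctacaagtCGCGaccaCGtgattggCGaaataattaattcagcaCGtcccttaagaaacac
They hold 9, 28, 5 and 15 CG dinucleotides. The mean ESC ratios within 1 kb of these starts were 2.13, 0.94, 0.44 and 2.49 in the same order. The counts in these 200 bases thus did not follow the ESC level. Of the 3619 annotated genes of chromosome 2, 84.1% have at least 1 CG in the same 200 bases and 24.4% have at least 10, and the median is 3. CG reads the same on both strands, so 1 count serves for both.

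Over the 2 kb around the start, 6 of the 17 promoters from Evx2 to Hoxd1 had more than 7 CG per 100 bases, a split chosen after the values had been seen: Hoxd13, Gm20440, Hoxd9, Hoxd8, 6720416L17Rik and Hoxd1, the last pair sharing most of its window. Their mean ESC ratios were 0.44 to 0.97, with a median of 0.82. The other 11, with 1.00 to 4.40 CG per 100 bases, had 0.78 to 2.38, with a median of 1.89. Across the 17 promoters the ESC ratio and the CG content had a Pearson correlation of -0.80 and a Spearman correlation of -0.78. In NPCs the correlations were -0.22 and -0.12, and for the difference they were 0.29 and 0.27. Genes are not independent replicates, and neighboring windows overlap, so these are descriptions. Both channels moved with the split: in ESCs the median Cy3 signal was 1.12 above the array median in the CG-rich promoters and 0.60 in the others, and the Cy5 signal was 1.76 and 2.16. The part of base composition in these dips was not tested.

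The channel that carried the difference between the cell types was the Cy5 channel. From Evx2 to Hoxd9 the median Cy3 signal, relative to the array median, was 0.23 to 0.40 on the 10 ESC arrays and 0.24 and 0.36 on the NPC arrays. From Hoxd8 to Hoxd1 it was 0.20 to 0.33 in ESCs and 0.27 and 0.28 in NPCs. The Cy5 signal was 2.19 to 2.57 in ESCs and 3.74 and 3.85 in NPCs in the posterior part, and 1.93 to 2.36 against 1.37 and 1.39 in the anterior part. The groups overlapped in the Cy3 channel and did not overlap in the Cy5 channel, in opposite directions in the parts. In Mtx2 both channels were below the array median on every array, the Cy3 signal at -1.62 to -1.41 and the Cy5 signal at -2.85 to -2.23.

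**Figure D5:**
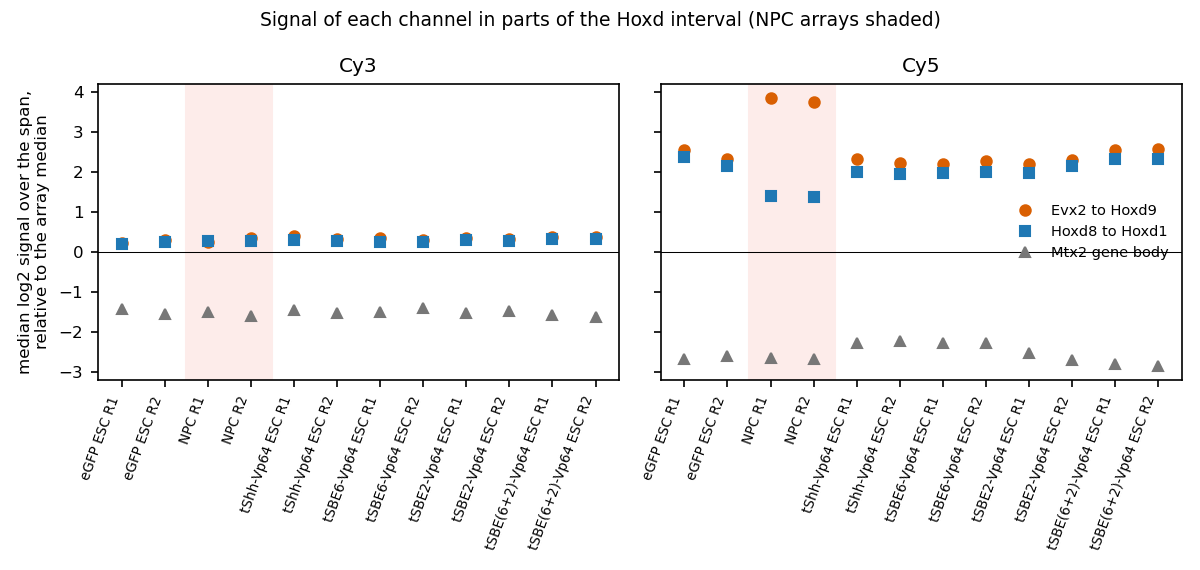
Median log2 signal of each channel, relative to the array median, over the posterior (Evx2 to Hoxd9) and anterior (Hoxd8 to Hoxd1) parts of the cluster and the Mtx2 gene body on each of the 12 arrays, NPC arrays shaded. At Cy3 the NPC arrays lie among the ESC arrays, and at Cy5 they reach 3.85 in the posterior and 1.37 in the anterior part.

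NPC arrays shared their slide with tSBE(6+2)-Vp64 ESCs alone, and the other ESC populations were on a second slide. Within the shared slide NPC minus tSBE(6+2) values were 0.23 to 1.95 in the higher and -1.34 to -0.25 in the lower of the 34 called tiles. The tiles were called from the same NPC values against populations that include tSBE(6+2). Their signs here are therefore no separate test of the slide. With the slide as a term in the fit, the NPC difference is again NPC minus tSBE(6+2), the only ESC population on that slide. That fit is therefore no separate test of the slide either. Its median difference was 0.36 over the Hoxd tiles and 0.11 over all tiles. NPC ratios also had a wider range over the whole array, their slope on the ESC mean being 1.24 over 5 kb tiles. The slope of tSBE(6+2)-Vp64 ESCs was 1.20 and their posterior minus anterior value was 0.13. The part of the wider range in the differences was not tested. After division by the slope 19 Hoxd tiles (29.2%) were higher, against 22.8% of all tiles. In that setting 13 Hoxd tiles (20%) were lower, against 6.7% of all tiles. The Cy5 signal was saturated at 21 and 23 Hoxd probes on the NPC arrays and at 0 to 19 on the ESC arrays. Without dim and saturated probes 18 of 63 Hoxd tiles (28.6%) were higher, against 22.6% of all tiles. Lower tiles then numbered 11 (17.5%), near the 15.7% of all tiles.

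The activators left no called change in the cluster. None of the 65 Hoxd tiles differed between the 4 TALE-Vp64 populations and eGFP ESCs (0 at an adjusted p of at most 0.05 in limma, against 0% of all 963 tiles, with 0 Hoxd tiles and 11 of all tiles at an unadjusted p under 0.05). The eGFP control was 1 sample in this comparison, and tSBE(6+2)-Vp64 ESCs were the only activator population on another slide. The count of 0 Hoxd tiles at an unadjusted p depended on including them, and without them some Hoxd tiles were under 0.05. It also depended on including both arrays of each condition. No Hoxd tile passed the adjusted threshold in these settings. In the 23 tiles that overlap Evx2 to Hoxd1 the median difference from eGFP was -0.34 with tShh-Vp64 (21 of 23 tiles below eGFP), -0.29 with tSBE6-Vp64 (21 of 23), -0.25 with tSBE2-Vp64 (22 of 23) and 0.07 with tSBE(6+2)-Vp64 (4 of 23). The arrays of eGFP itself had means over the gene region of 2.24 (R1) and 1.90 (R2). The slopes of the populations on the mean of the others moved with them, at 1.04 in eGFP, 0.86, 0.93 and 0.94 in tShh, tSBE6 and tSBE2, and 1.20 in tSBE(6+2), and their part in the differences was not tested.

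The shape of the ESC domain was alike in all populations. Over the 23 tiles of the gene region the levels of any 2 ESC populations had Pearson correlations of 0.84 to 0.97, and NPC levels had a correlation of 0.34 with the ESC mean. Over all 65 tiles, which include the low flanks, the NPC correlation with the ESC mean was 0.85. Tiles share their arrays and neighboring tiles are not independent, and these correlations carry no test. GC content went with the level over the 65 tiles (0.77 in ESCs and 0.68 in NPCs) and less with the difference (0.17). With the trend on GC content removed 33 Hoxd tiles (50.8%) were higher, against 34.0% of all tiles. Lower tiles then numbered 9 (13.8%), against 16.0% of all tiles, so that the order of the lower shares turned.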

How the data were processed

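H3K27me3 was measured by native ChIP-chip in 6 conditions on 12 arrays; the methods of the study cover other arrays, not these. The authors scanned the arrays at the wavelengths of Cy3 and Cy5 and deposited spot intensity values from Agilent Feature Extraction 11.5.1.1, made in single-colour mode on each wavelength. The authors also deposited normalized log2 ratios with R1 and R2 combined, whose normalization is not given in the sources used here beyond limma in the submitters' processing notes; these were used for the direction and as an alternative.

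Control spots and outlier spots (328 to 3122 probes per array) were left out, log2 ratios were centered on the array median, and arrays of a condition were averaged, because the labels of 3 conditions give R1 and R2 the same biological replicate. For the others it is not stated, and p-values measure the spread between these samples. Probes were averaged in 5 kb tiles (at least 5 probes) and within 1 kb of the most upstream start of each gene (at least 10 probes), with genes from GENCODE vM1 in mm9, the build of the files. NPCs against ESC populations and TALE-Vp64 populations against eGFP ESCs were fitted with limma 3.58.1 (lmFit, eBayes) over all features of the array, with Benjamini-Hochberg adjustment at 0.05, and a group of 1 sample (NPC, eGFP) was given the spread of the others. The fits were tested on simulated data with known shifts.

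Every gene with a start in the interval and every called tile is named or counted. The members, gene lists and tests were chosen with earlier results of these data known. The number of arrays limits the precision, and R1 and R2 had correlations across all probes of 0.791 to 0.882. The share of Hoxd probes well above background was 50.6% to 91.4% in Cy3 and 77.6% to 88.2% in Cy5. In Cy3 it was 50.6% to 76.4% on the slide of NPCs and tSBE(6+2)-Vp64 ESCs, and 72.7% to 91.4% on the other slide. The lowest Cy5 share was on NPC array R1. The part of these shares in the differences was not tested. Alternatives were loess with scale normalization, normexp, the deposited ratios, leaving out dim and saturated probes, rescaled NPC values, other tile sizes and windows, no probe minimum, arrays as samples, slide and GC terms, and leaving out arrays or populations. Pairing by R1 and R2 was checked: between conditions, the R1 deviations correlated at -0.25 to 0.43. These values differ in sign and do not settle whether the numbers pair the samples.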

Additional observations from a re-analysis of the deposited data

Results flagged for a closer look

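At the promoter of 4930445N08Rik, a noncoding gene that shares its start region with Lnp, the level of -0.70 in tSBE(6+2)-Vp64 ESCs stood apart from the other ESC populations, which were at -0.46 to -0.37. Of 29 groups of 5 ESC populations tested for an outlying sample in the interval this was the only one, and chance flags about 1 in 20. The tSBE(6+2)-Vp64 ESCs were the only ESC population on their slide, and NPCs, on the same slide, had -0.57. The part of the slide was not tested.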

How the results depend on the processing

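Of the 34 called tiles, 24 kept their call in every alternative fitted on 5 kb tiles, as did 11 of the 12 called promoters; Hoxd9 was the exception. The Hoxd1 tile from 74600001 had a difference of -0.00506 with loess and scale normalization. Higher tiles numbered 47 of 158 in 2 kb tiles (29.7%, against 22.6% of all) and 12 of 33 in 10 kb tiles (36.4%, against 28.9%). Lower tiles numbered 18 (11.4%, against 6.8%) and 6 (18.2%, against 13.7%). With the deposited ratios 17 Hoxd tiles (26.2%) were lower, against 34.3% of all tiles, and 5 promoters (20.8%), against 18.0% of all promoters. With arrays as samples and no replicate block 17 Hoxd tiles (26.2%) were lower, against 31.0% of all tiles. In that setting 3 Hoxd tiles (4.6%) differed between TALE-Vp64 and eGFP ESCs, against 8.4% of all tiles. With the replicate block 33 Hoxd tiles (50.8%) were higher, against 41.1% of all tiles, and 16 (24.6%) were lower, against 31.4%. Between TALE-Vp64 and eGFP ESCs 4 Hoxd tiles (6.2%) then differed, against 8.2% of all tiles. Leaving out arrays or populations gave 20 to 23 higher Hoxd tiles (30.8% to 35.4%), against 24.1% to 27.2% of all tiles. Lower Hoxd tiles numbered 8 to 11 (12.3% to 16.9%), against 7.5% to 11.0%. Higher Hoxd promoters numbered 9 to 12 (39.1% to 52.2%), against 47.3% to 53.6% of all promoters. Lower ones numbered 3 (13.0%), against 6.4% to 8.2%. For TALE-Vp64 0 Hoxd tiles differed, against 0% to 0.1% of all tiles. The gene region difference of 0.36 was -0.22 with loess and scale normalization, -0.0276 with the deposited ratios, -0.0914 with rescaled NPC values, -0.0207 as a median, and 0.33 to 0.38 without either array. Block totals in eGFP ESCs were 114 kb with the deposited ratios, with the filter or at a threshold of 1.5, 144 kb at 0.5, and 124 to 136 kb without an array. In NPCs they were 104 kb (loess), 112 kb (normexp), 84 kb (deposited ratios), 96 kb (filter), 174 kb at 0.5, 84 kb at 1.5, 102 kb (rescaled) and 128 to 140 kb without an array. The causes were not tested.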
